A study of Mus musculus with 8 samples.

Results

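The genes described here encode enzymes that remove nitrogen from amino acids in the liver: the urea cycle enzymes Cps1, Otc, Ass1, Asl and Arg1, the glutamine enzymes Glul and Gls2, and the amino acid degrading enzymes Tat and Tdo2. All rows carrying one of these 9 gene symbols were taken from 3 lists of N6-methyladenosine (m6A) peaks, whatever their values. They came to 10 of 15635 peaks in the Wtap flox/flox list, 10 of 19185 peaks in the Wtap-HKO list and 8 of 3870 rows in the list of peaks that differed between the genotypes. Of the 9 genes, 7 had a peak in each genotype, beside 11558 genes with a peak in either list, and Cps1 and Ass1 had none.

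m6A RNA immunoprecipitation sequencing (m6ARIP-seq) recovers RNA fragments with an antibody against m6A and compares them with the input RNA. It was done on livers of C57BL/6 mice (C57BL/6J background per the study's methods) that were 8 weeks old and fed normal chow, with 2 IP and 2 input libraries per genotype. Wtap flox/flox mice carry Wtap alleles with exon 4 between loxP sites and served as controls. Wtap-HKO mice carry the same alleles together with Cre under the Alb promoter, which is active in hepatocytes, so other liver cells keep Wtap. Each replicate was RNA pooled from 5 mice, and each list combines the replicates of its genotype. Hence every value below is 1 number per genotype, with no spread between replicates and no test, and the depth of the libraries is unknown. In whole liver, a change in the modified share of a transcript and a change in the cells that supply it cannot be told apart.

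WTAP is the subunit that brings the METTL3-METTL14 methyltransferase to nuclear speckles, and the complex writes most m6A of messenger RNA. The mark is usually found near stop codons, in long internal exons and in 3′ untranslated regions. The antibody also binds m6Am, a modified adenosine next to the cap that another enzyme writes, and peaks at a transcript start do not tell these marks apart. In the urea cycle, CPS1 makes carbamoyl phosphate from ammonia, OTC joins it to ornithine, ASS1 and ASL convert citrulline to arginine, and ARG1 splits arginine into urea and ornithine. This pathway and the glutaminase GLS2 work mainly in periportal hepatocytes, whereas glutamine synthetase, the product of Glul, captures the remaining ammonia in hepatocytes around the central vein. TAT and TDO2 start the breakdown of tyrosine and tryptophan and are induced by glucocorticoids.

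Peaks were placed at a gene end when they came within 200 nucleotides of it, and 6 of the 11 separate member sites lay at a 5′ end. Of the 6 sites at a 5′ end, 4, those of Otc, Glul, Tat and Tdo2, lie on or next to a RefSeq transcript start printed here. The printed start of Ass1 has no peak. The starts of Cps1, Asl, Arg1 and Gls2 were not available, so the 5′ sites of Asl and Gls2, which had the highest log2 ratios, are not among the sequences searched. The starts available, those of 5 of the 9 genes, are all printed. They are Glul at chr1:153899929-153899958 (plus strand), Ass1 at chr2:31470270-31470299 (plus strand), Tdo2 at chr3:81975699-81975728 (minus strand), Tat at chr8:109990436-109990465 (plus strand) and Otc at chrX:10252305-10252334 (plus strand), all in GRCm38.p6. The first 30 bases of each are given 5′ to 3′, with GGAC, a frequent core of the m6A motif, in capitals.
Otc: agggtgctaagacctttgctccctctctgc
Ass1: gcttataaccctggatgcgcgcctctctca
Glul: gcagccagcgaccctgcagagcggagaatg
Tat: ctcatcatcagaGGACttggtggaggagcg
Tdo2: agcaaacctgtgtggtcctgagacacttca
GGAC was found in the first 50 bases of 1 of these 5 starts, that of Tat, and in 18.9% of 32851 RefSeq starts. Its reverse complement, GTCC, was found in 1 of the 5, that of Tdo2, and in 17.4% of all starts. The Tdo2 peaks of both genotypes covered all 30 bases, and the Tat peaks covered 29 of them. In Otc the Wtap-HKO peak covered all 30 bases, whereas the Wtap flox/flox peak began at base 31, directly after them. Peak edges differed between the genotypes at other matched sites too, so this is not particular to Otc. The printed Otc start, like that of Tat, lies inside the gene span. The Wtap-HKO peak of Glul began at base 16, and no peak touched the Ass1 start. The letters describe this window only and mark no methylated base.

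Over the whole set, fold enrichment, which is the IP signal over input within a genotype as given by the peak caller exomePeak, was low. The median of the member peaks was 2.55 in control livers and 3.65 in Wtap-HKO livers, whereas the medians of the 2 whole lists were 5.51 and 5.93. In Wtap flox/flox livers 10 of 10 member peaks were below the list median, and in Wtap-HKO livers 8 of 10 were, the exceptions being the 5′ peaks of Asl and Gls2. Several of these calls were nonetheless strong: the false discovery rate, which comes from reads, was listed as 0 for 4 member peaks in control livers and 3 in Wtap-HKO livers, beside 4.16% and 3.44% of all peaks.

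Sites were matched when the peaks of both genotypes shared at least 1 exonic base on the same strand. There were 9 matched sites, 1 site in Wtap flox/flox only and 1 in Wtap-HKO only. Over all genes, 80.1% of the control peaks had a partner in the Wtap-HKO list and 64.7% of the peaks in Wtap-HKO livers had a partner in the control list. Fold enrichment was higher in Wtap-HKO livers at 7 of the 9 matched sites, beside 51.8% of all 12524 matched sites, and lower at those of Arg1 and Glul. The median log2 ratio of Wtap-HKO to Wtap flox/flox fold enrichment was 0.60 over the 9 sites, with a range from -1.11 to 1.97, and 0.05 over all matched sites. The sites that were higher in Wtap-HKO livers included all 5 matched sites at a 5′ end, but this direction was common there: 84.4% of the 1780 matched 5′ sites of all genes were higher in Wtap-HKO livers, with a median log2 ratio of 0.81. Away from the 5′ ends, 2 of 4 matched member sites were higher, both of them in Asl. Among matched sites of all genes, 45.8% between the ends and 39.5% at the 3′ end were higher. A 5′ end thus held 5 of the 9 matched member sites, beside 1780 of all 12524 matched sites, of which 1176 could not be placed.

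**Figure D1:**
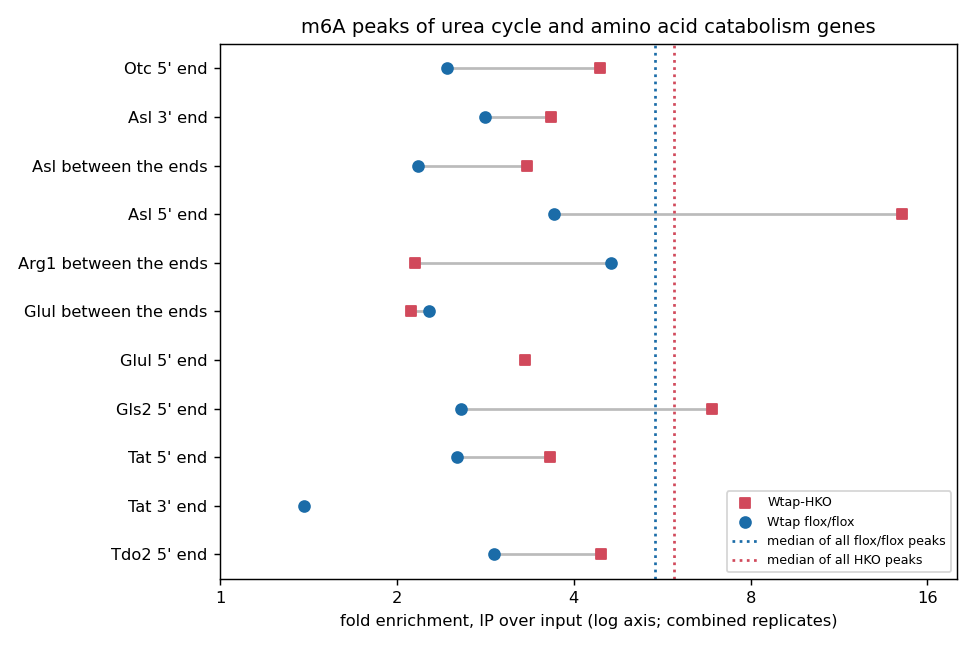
Fold enrichment (IP over input, log axis, combined replicates) of each member peak in Wtap flox/flox (circles) and Wtap-HKO livers (squares), joined where the peaks overlap; dotted lines are the medians of the 2 whole lists. The squares lie to the right at 7 of 9 matched sites, and only the 5′ peaks of Asl and Gls2 in Wtap-HKO livers pass their list median of 5.93.

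Cps1, the entry enzyme of the urea cycle (chr1:67122426-67231267), had 0 rows in all 3 lists. Ass1, the argininosuccinate synthetase gene (chr2:31470270-31520670), likewise had 0 rows. No row of another gene symbol lay within either gene span on either strand. No enrichment in either genotype was therefore called for these periportal transcripts, and with the depth unknown no smallest detectable enrichment can be given.

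Otc, the ornithine transcarbamylase gene (ENSMUSG00000031173, chrX:10252230-10321024, plus strand), had 1 peak per genotype, at its 5′ end. The Wtap flox/flox peak held 179 nucleotides from base 31 of the printed start onward and 1 nucleotide of a block more than 10 kilobases downstream (chrX:10252335-10264796), with a fold enrichment of 2.43. In Wtap-HKO livers the peak covered 240 nucleotides (chrX:10252305-10264826), with a fold enrichment of 4.43. The Wtap-HKO value was 1.82 times the control value, a log2 ratio of 0.87, and the peak moved from the percentile rank 10.9 of the control list to 35.0 of the Wtap-HKO list. The log2 ratio lay close to the median of all matched 5′ sites.

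Asl, the argininosuccinate lyase gene (ENSMUSG00000025533, chr5:130011258-130024381, minus strand), was the gene with the most peaks and held the widest gap between the genotypes. It had 3 matched sites, each higher in Wtap-HKO livers. At the 5′ end the fold enrichment was 3.7 in Wtap flox/flox livers (chr5:130024061-130024389) and 14.5 in Wtap-HKO livers (chr5:130024001-130024419), a ratio of 3.92. Its percentile rank was 29.5 in the control list and 81.0 in the Wtap-HKO list. The log2 ratio of 1.97 was at the upper edge of the matched 5′ sites of all genes, whose 5th and 95th percentiles were -0.78 and 1.97.
The other Asl sites differed less. Between the ends the values were 2.17 (chr5:130019753-130022362) and 3.33 (chr5:130019723-130022391), a log2 ratio of 0.62. At the 3′ end they were 2.82 (chr5:130011258-130011467) and 3.66 (chr5:130011258-130011526), a log2 ratio of 0.38. This 3′ site had the weakest calls of the set, with a log10 false discovery rate of -12.1 in control livers and -11.3 in Wtap-HKO livers.

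Arg1, the arginase of the last step (ENSMUSG00000019987, chr10:24915207-24927470, minus strand), was the member whose value was lower in Wtap-HKO livers by the widest margin. Its single site, 222 nucleotides from the 3′ end of the gene, was enriched 4.63 times over input in Wtap flox/flox livers (chr10:24915429-24915815) and 2.15 in Wtap-HKO livers (chr10:24915488-24915785). The Wtap-HKO value was 0.464 times the control value, a log2 ratio of -1.11, and the percentile rank went from 41.2 to 5.57. The covered length was 387 nucleotides in control and 298 nucleotides in Wtap-HKO livers. Among the 8441 matched sites between gene ends, whose lower quartile of log2 ratios was -0.65, Arg1 lay below that quartile. Its outer edge fell just beyond the limit for a 3′ site.

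Glul, the glutamine synthetase gene (ENSMUSG00000026473, chr1:153899929-153909723, plus strand), carried a site in both genotypes and a second site in Wtap-HKO livers only. At the shared site, in the downstream part of the gene, the fold enrichment was 2.27 in Wtap flox/flox livers (chr1:153907897-153908286) and 2.11 in Wtap-HKO livers (chr1:153907987-153908286). The log2 ratio was -0.11, near the median of -0.09 of all sites between gene ends. The Wtap-HKO peak at the 5′ end (chr1:153899944-153900670) covered 181 nucleotides with a fold enrichment of 3.31. It overlapped 2 other rows of that list. One belongs to Teddm2, on the minus strand (chr1:153899931-153900139), with a fold enrichment of 3.21 and 116 shared nucleotides. The other belongs to the unnamed gene ENSMUSG00000099227, on the plus strand (chr1:153899953-153900036), with a fold enrichment of 3.15 and 84 shared nucleotides. Use of strand in the counting is not given in the sources used here, so reads of these genes and of Glul cannot be told apart at the 5′ site.

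Gls2, the liver glutaminase (ENSMUSG00000044005, chr10:128194635-128210004, plus strand), had 1 site, at the 5′ end. Its fold enrichment was 2.57 in Wtap flox/flox livers (chr10:128194637-128194846) and 6.88 in Wtap-HKO livers (chr10:128194607-128195114), and the covered length was 210 and 360 nucleotides. The ratio was 2.68, a log2 ratio of 1.42, above the upper quartile of 1.21 of all matched 5′ sites. Its percentile rank was 13.1 in the control list and 56.8 in the Wtap-HKO list. Among the 9 matched sites the Gls2 site thus had the second highest log2 ratio, and the shared site of Glul differed least. These 2 sites lie at unlike positions. The medians of all matched sites were 0.81 at 5′ ends and -0.09 between the ends. The 5′ site of Glul was listed in Wtap-HKO livers only, so gene and position cannot be told apart here.

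Tat, tyrosine aminotransferase (ENSMUSG00000001670, chr8:109986078-109999804, plus strand), had a matched site at the RefSeq transcript start inside its span. Both peaks covered the same 90 nucleotides (chr8:109990437-109990526), so that their values rest on the same window: 2.53 in control livers and 3.64 in Wtap-HKO livers, a log2 ratio of 0.52. A second Tat peak, at the 3′ end (chr8:109999477-109999625), was listed in Wtap flox/flox livers only. Its fold enrichment of 1.39 was the lowest of the set, at the percentile rank 0.205 of the control list.

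Tdo2, tryptophan dioxygenase (ENSMUSG00000028011, chr3:81958412-81975728, minus strand), had 1 site, at the 5′ end. The fold enrichment was 2.93 over 270 nucleotides in Wtap flox/flox livers (chr3:81975346-81975844) and 4.45 over 300 nucleotides in Wtap-HKO livers (chr3:81974404-81975844). The log2 ratio was 0.60, below the median of 0.81 of matched 5′ sites. Both peaks extended 116 nucleotides upstream of the RefSeq start.

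**Figure D2:**
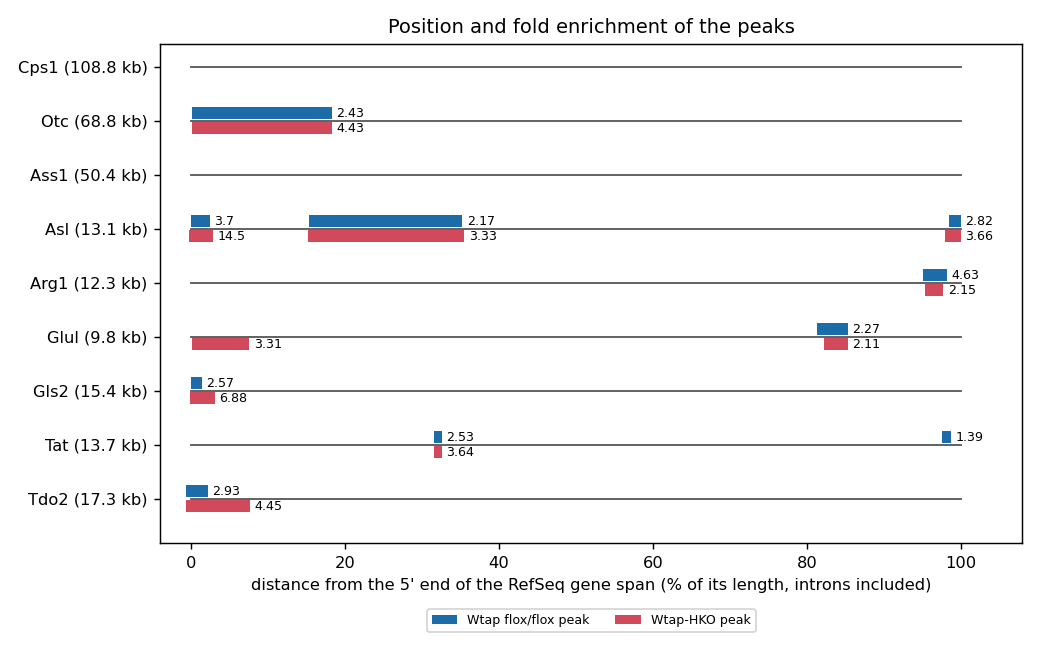
Position of the peaks along each gene, from the 5′ end (left) to the 3′ end (right) of the RefSeq gene span in percent of its length, introns included; upper bars are Wtap flox/flox and lower bars Wtap-HKO peaks, with the fold enrichment beside each. Cps1 and Ass1 carry no bar, the Glul bar at the 5′ end is present in Wtap-HKO livers only, and the Tat bar at the 3′ end is present in Wtap flox/flox livers only.

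Peaks of the separate differential list were then placed on these sites. Its limits were a p under 0.01 and a fold change over 1 per the study's methods. A supplementary figure legend of the study gives the second limit as an absolute log2 fold change over 1. The list holds peaks called on both genotypes together, and only which sites it names was used. It held 8 rows for 7 of the 9 genes, beside 27.8% of all genes with a peak. The rows overlapped 8 of the 11 member sites, including 7 of the 9 matched sites, beside 22.1% of all matched sites, 22.3% of all control peaks and 18.1% of all peaks in Wtap-HKO livers. The sites not listed were the 3′ site of Asl, the shared site of Glul and the 3′ site of Tat. All 5 matched sites at a 5′ end were listed, beside 25.8% of matched 5′ sites of all genes. The 5′ site of Glul, found in Wtap-HKO only, was listed too.
Listing also went with the strength of the call. Among matched sites of all genes with a false discovery rate listed as 0 in Wtap flox/flox livers, 63.9% were in the differential list. The member sites of that kind were those of Arg1 and Tdo2, the 5′ site of Asl and the shared site of Glul, and 3 of these 4 were listed. The part of call strength in the number of listed member sites was not tested.
The fold enrichment of the listed rows, over both genotypes together, was 3.34 for Otc, 4.41 and 2.27 for the 5′ and middle sites of Asl, 3.5 for Arg1, 3.31 for Gls2, 3.08 for Tat and 3.72 for Tdo2. For the 5′ site of Glul it was 1.55, the lowest of these rows, and there too rows of Teddm2 (4.01) and ENSMUSG00000099227 (1.52) overlapped it.

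**Figure D3:**
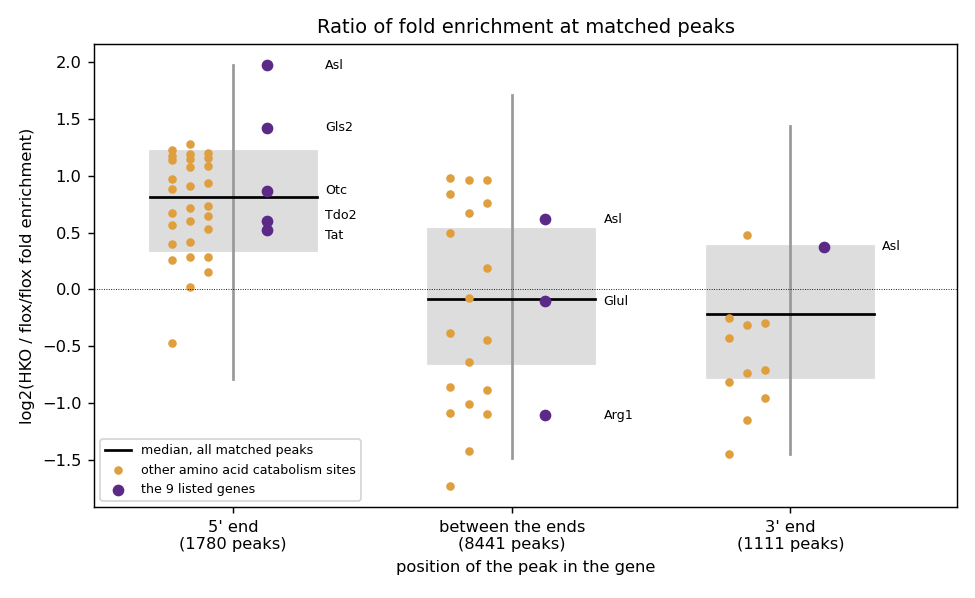
Log2 ratio of Wtap-HKO to Wtap flox/flox fold enrichment at matched peaks by position in the gene; grey boxes, black lines and grey lines give the quartiles, median and 5th to 95th percentiles of all matched peaks, small points the other amino acid catabolism genes and large points the 9 listed genes. All 5 large points at the 5′ end lie above 0, as do 84.4% of all matched peaks there, and Arg1 lies at -1.11 between the ends.

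The contrast of periportal with pericentral transcripts rests on few peaks. Of the periportal pair Cps1 and Ass1 neither had a peak, whereas the pericentral Glul had 1 peak in control livers and 2 in Wtap-HKO livers. Wider lists were therefore set beside them. Of 12 periportal genes, among them Cps1, Otc, Ass1, Asl, Arg1 and Gls2, 9 had a peak in either genotype, and 8 had a differential row. Of 11 pericentral genes, Glul among them, 8 had a peak in either genotype and 7 had a differential row. Among all genes with a peak, 27.8% had a differential row. The genes with no peak were Cps1, Ass1 and Sds in the first list and Cyp27a1, Lgr5 and Rhbg in the second.
At matched sites, fold enrichment was higher in Wtap-HKO livers at 9 of 13 periportal sites, with a median log2 ratio of 0.62, and at 3 of 9 pericentral sites, with a median of -0.38. The 2 lists differed in where their peaks lay. Of the matched periportal sites 5 were at a 5′ end, and 5 of these 5 were higher in Wtap-HKO livers. All 9 matched pericentral sites lay between the gene ends. These counts leave out 5′ peaks found in a single genotype. In Wtap-HKO livers only, these were the pericentral Glul (3.31) and Gulo (4.82) and the periportal Cyp2f2 (8.85) and Hsd17b13 (2.38). In Wtap flox/flox livers only, it was the periportal Hal (5.32). Thus 5′ peaks were called in both lists. Between the ends, 3 of 6 periportal and 3 of 9 pericentral sites were higher in Wtap-HKO livers, with medians of 0.27 and -0.38. For matched sites of all genes, 84.4% at 5′ ends and 45.8% between the ends were higher, with medians of 0.81 and -0.09. Of the 3 pericentral sites that were higher, 2 were Axin2 peaks matched to the same Wtap-HKO peak. Zone and position of the peak cannot be told apart in the whole lists.
Of the periportal genes with a differential row that are not members, Hal, the histidine ammonia-lyase, had values of 3.57 and 6.05 at its listed site (Wtap flox/flox first), 2.54 and 4.04 at another site between its ends, and a 5′ peak of 5.32 in Wtap flox/flox livers only. Pck1, the gluconeogenic PEP carboxykinase, had 2.85 and 6.32 at its 5′ end and 2.07 and 1.96 further downstream. G6pc, glucose-6-phosphatase, had 3.54 and 5.32 at its 5′ end but 3.5 and 2.5 between the ends and 2.71 and 2.06 at its 3′ end. For Hsd17b13, a lipid droplet protein, a 5′ peak of 2.38 was present in Wtap-HKO livers only.
Of the 4 pericentral genes named by the same rule, 3 had the lower value in Wtap-HKO livers at their matched site. The glutamate transporter gene Slc1a2 had 8.87 in control livers and 2.97 in Wtap-HKO livers, the transcription factor gene Tbx3 had 7.68 and 3.5, and Cyp1a2 had 4.11 and 1.91. Oat, which makes glutamate semialdehyde from ornithine, had 4.92 and 3.77 at its downstream site and 2.81 and 5.03 at its upstream site. The log2 ratios of Cyp1a2 (-1.11) and Tbx3 (-1.13) were of the size of that of the periportal Arg1.

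**Figure D4:**
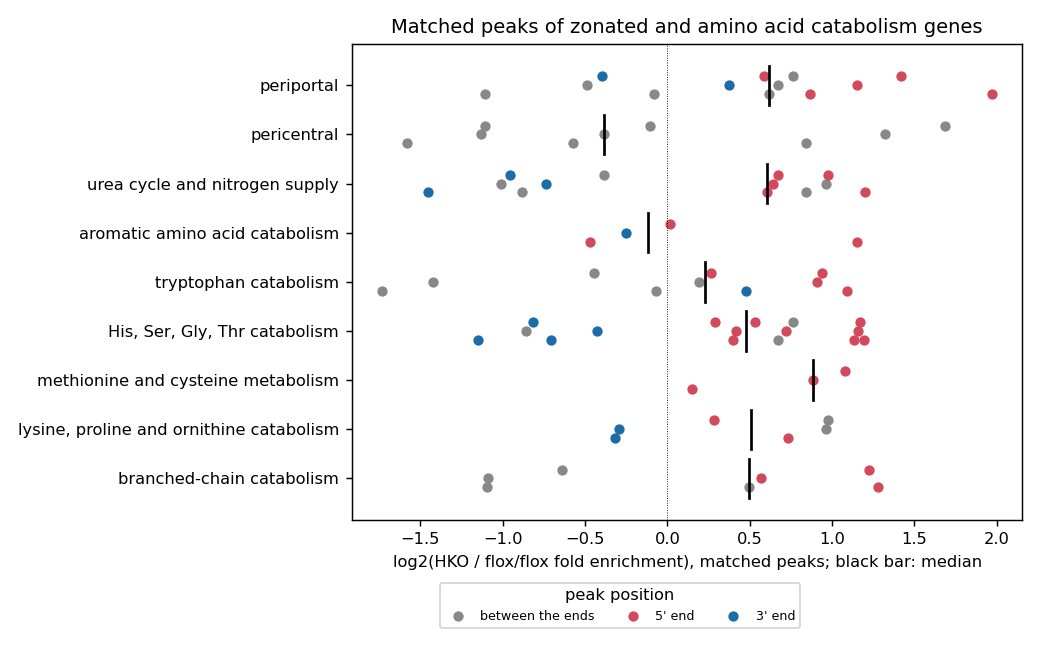
Log2 ratio of Wtap-HKO to Wtap flox/flox fold enrichment at each matched peak of the zone lists, which contain some of the 9 genes, and of the wider amino acid lists, which contain none of them; colours give the position in the gene and black bars the median of a list. The red 5′ points of the periportal list all lie right of 0, as do 84.4% of all matched 5′ peaks. The 9 pericentral points are all between gene ends, with a median of -0.38.

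The rest of amino acid catabolism was described with 67 further genes in 7 lists, of which 56 had a peak in either genotype and 40 a differential row. Among all genes with a peak the share with a differential row was 27.8%, beside which the counts per list below also stand. Of their 59 matched sites, 37 had the higher fold enrichment in Wtap-HKO livers, with a median log2 ratio of 0.42. By position, 28 of 29 matched 5′ sites were higher, with a median of 0.73. Between the ends 8 of 19 were, with a median of -0.38, and at the 3′ end 1 of 11 was, with a median of -0.71. Among matched sites of all genes, 51.8% were higher in Wtap-HKO livers. By position this share was 84.4% at the 5′ end, 45.8% between the ends and 39.5% at the 3′ end. Among sites found in a single genotype, 8 of the 15 sites in Wtap-HKO only and 2 of the 13 in Wtap flox/flox only were at a 5′ end. The same shares over all genes were not calculated, so these 2 counts cannot be read as a trait of the amino acid genes.

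Of 11 genes around the urea cycle and its nitrogen supply, 11 had a peak and 9 a differential row, and 7 of 13 matched sites were higher in Wtap-HKO livers. Nags, whose product makes the activator of CPS1, had 5.17 in control livers and 8.25 in Wtap-HKO livers at its 5′ end and 7.65 and 2.8 at its 3′ end. Car5a, the mitochondrial carbonic anhydrase that supplies bicarbonate to CPS1, showed the same split, with 2.79 and 4.36 at its 5′ end and 4.6 and 2.76 at its 3′ end. Slc25a15, the mitochondrial ornithine carrier, had 4.21 and 9.69 at its 5′ end and 4.09 and 2.22 between the ends. In each of these 3 genes the ratio pointed up at the 5′ end and down further along, whereas in Asl all 3 sites pointed up.

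Of 8 genes of tryptophan catabolism beyond Tdo2, 8 had a peak and 6 a differential row, with 6 of 10 matched sites higher in Wtap-HKO livers. Kmo and Aadat, which act on kynurenine, had 4.24 and 8.13, and 2.63 and 5.59, at their 5′ ends. Acmsd, which turns the pathway away from NAD synthesis, had 7.93 and 2.39 at a site between its ends, the lowest log2 ratio of the wider lists (-1.73). Ido2, a tryptophan dioxygenase of another family, had 6.53 and 2.44 between its ends and 4.25 and 5.1 at its 5′ end.
Of 7 further genes of aromatic amino acid catabolism, 5 had a peak and 4 a differential row. Fah, which catalyses the last step of tyrosine breakdown, had 1.6 and 3.55 at its 5′ end. Hgd, homogentisate dioxygenase, had nearly equal values of 3.2 and 3.24 at its 5′ end and 2.15 and 1.81 at its 3′ end, and Gstz1 had a peak of 2.21 in Wtap flox/flox livers only.

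In the list for histidine, serine, glycine and threonine, 13 of 18 genes had a peak, 9 a differential row, and 11 of 16 matched sites were higher in Wtap-HKO livers. Agxt, which detoxifies glyoxylate, had 3.75 and 8.23 at its 5′ end and 2.43 and 1.38 at its 3′ end. Bhmt, which remethylates homocysteine with betaine, had 3.68 and 4.49 at its 5′ end and 2.76 and 1.69 at its 3′ end. Glyctk, glycerate kinase, had 3.53 and 5.11 at its 5′ end but 8.91 and 4.91 between its ends.
In methionine and cysteine metabolism 5 of 6 genes had a peak, 2 had a differential row, and 3 of 3 matched sites, all at 5′ ends, were higher. Cth, the cystathionine gamma-lyase, had 6.25 and 13.2, and Cdo1, the cysteine dioxygenase, had 2.32 and 4.29.
In lysine, proline and ornithine catabolism 5 of 6 genes had a peak, 4 had a differential row, and 4 of 6 matched sites were higher. Aldh4a1 had 6.73 and 8.18 at its 5′ end, Aass had 3.3 and 6.49 and Aldh7a1 had 1.85 and 3.61 between their ends. Gcdh, glutaryl-CoA dehydrogenase, had 2.7 and 4.49 at its 5′ end and 2.65 and 2.13 at its 3′ end.
In branched-chain amino acid catabolism 9 of 11 genes had a peak, 6 had a differential row, and 4 of 7 matched sites were higher. Ivd and Pccb, which encode mitochondrial acyl-CoA enzymes or their subunits, had 5.32 and 12.9, and 4.79 and 11.2, at their 5′ ends. Mccc1 had 2.27 and 3.36 at its 5′ end but 4.4 and 2.06 between its ends, and Hibch had 3.77 and 1.77 between its ends.

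Wtap itself (chromosome 17, minus strand) had 3 peaks in each list and 1 differential row, with fold enrichments between 8.06 and 20.7 in Wtap flox/flox livers and between 4.47 and 20.6 in Wtap-HKO livers. A peak list gives no expression level and so does not check the deletion. Of 6 hepatocyte markers, 4 (Alb, Ttr, Apoa1 and Hnf4a) had a peak in either genotype and all 4 had a differential row. Of the Kupffer, endothelial and stellate cell markers, 4 of 5, 3 of 4 and 3 of 4 had a peak, and 1, 0 and 1 had a differential row. Among all genes with a peak, 27.8% had one. At matched sites of the markers, fold enrichment was higher in Wtap-HKO livers at 3 of 5 hepatocyte, 2 of 4 Kupffer cell, 4 of 4 endothelial and 5 of 6 stellate cell sites. The share over all matched sites was 51.8%. Of these marker sites, 2 hepatocyte, 1 Kupffer cell, 0 endothelial and 0 stellate cell sites lay at a 5′ end, so the cell types differed in position. The part of cell composition in the member values was not tested.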

How the data were processed

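m6ARIP-seq libraries (2 IP and 2 input for each of 2 genotypes, 150 bp paired-end reads) were made from poly(A)+ liver RNA. Per the labels and the study's methods, the authors trimmed reads with fastp 0.19.11, aligned them to GRCm38 (Ensembl 92) with BWA mem 0.7.12, which does not model splicing, and called peaks with exomePeak 2.16.0. How replicates were combined is not given in the sources used here. The deposited lists hold, for each peak, the fold enrichment (a ratio of IP to input, scaling not described) and the log10 of p and of the false discovery rate, treated here as a score. The differential list also holds the authors' log2 fold change between genotypes with its log10 p and false discovery rate. These columns were not used.

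Genotypes were taken from the labels. Peaks of both lists were matched by at least 1 shared exonic base on the same strand, with a partner of the same gene ID preferred and then the partner sharing most bases, and several peaks may share a partner. The ratio of fold enrichments is relative to the unknown scaling of each genotype, so that a change common to all sites would not be seen, and it depends on peak boundaries, which differed between the lists. Gene spans and starts came from RefSeq (GRCm38.p6), and a peak within 200 nucleotides of a span end, or of a listed start, was placed there. Of the matched peaks, 1176 could not be placed and 16 touched both ends. No values per library were analysed, so no test, standard deviation or interval is given. Percentile ranks are of fold enrichment within a list. The calculation used Python 3.11.15 with pandas 2.3.3 and numpy 2.4.6, and the matching was tested on simulated data.

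All 9 genes were described with every peak. From each wider or zone list up to 4 genes with a differential row were named, those with the highest Wtap flox/flox fold enrichment first, and 1 of these genes is not reported here. The members and lists were chosen with earlier results of these data known. Alternatives were thresholds on false discovery rate and fold enrichment, matching by position, merged rows, stricter overlap, 1 to 1 matches and centring. The sign relative to the median ratio and by percentile rank was added after seeing the data.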

Additional observations from a re-analysis of the deposited data

How the results depend on the processing

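The median log2 ratio over the 9 matched sites was 0.60, and 0.56 after subtracting the median of all matched peaks. With peaks matched 1 to 1 only, or sharing at least 50% of both peaks, all 9 sites were kept. All 23 alternatives kept the direction of their result and its size within 1.5 times. A fold enrichment of at least 2 left 9 Wtap flox/flox peaks and 7 differential rows, and taking rows by position gave 11 Wtap-HKO peaks and 9 differential rows. The 7 sites higher in Wtap-HKO livers numbered 7 also relative to the median ratio and by percentile rank, 2 alternatives chosen after seeing the data. No paired analysis was possible because each list combines its replicates, and leaving out a replicate could not be run. The unknown depth limits what the absence of a peak in Cps1 and Ass1 can show.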
